A study of Mus musculus with 6 samples.

Results

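Collagens, integrins and the proteins that join them in the extracellular matrix were examined in mouse embryonic stem (ES) cells with and without Morc3, an ATPase of the MORC family that the study investigated as a silencing factor of endogenous retroviruses. Genes were taken by symbol as collagen chains (Col followed by the type and the chain) and integrin subunits (Itga and Itgb), together with the 11 genes Fn1, Sparc, Igfbp7, Mfap2, Mfap5, Nid1, Nid2, Hspg2, Agrn, Dag1 and Vim, and a gene had to reach 30 sense counts over all libraries. Laminins were left out. Of 24054 gene rows 86 matched, and 50 reached the minimum. These are 19 collagens, 18 integrin subunits, 8 matrix glycoproteins and proteoglycans, the matrix receptor gene Dag1, the intermediate filament gene Vim, and 3 rows whose symbol fits the pattern but whose product is no integrin subunit (Itgb1bp1, Itgb1bp2 and Itgb3bp). After the filter on low counts 44 of the 50 could be tested among 12222 genes.

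RNA-seq was performed on 3 Morc3 knock-out (ko) clones, KO27-1, KO27-2 and KO27-3, and on 3 cultures of the wild-type line WT26, named p42, p43 and p56 after their titles. The meaning of the letter p was not given in the labels. Each ko line grew from a single cell clone after Cas9 cleavage in the wild-type line, so that the ko libraries are separate clones, while the wild-type libraries are cultures of 1 line. All 6 were grown without feeder cells on gelatin in medium with serum and LIF, the cytokine that holds ES cells in the pluripotent state. Gelatin is denatured collagen, and serum brings its own matrix proteins, which RNA-seq does not measure.

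Type IV collagen forms the sheet-like network of basement membranes, in which nidogens and perlecan tie it to laminin. Each type IV molecule is a triple helix of 3 alpha chains, and in most tissues these are the products of Col4a1 and Col4a2. Fibrillar collagens build the cables of connective tissue, and FACIT collagens sit on their surface. Integrins are pairs of an alpha and a beta subunit that span the plasma membrane and bind laminin, fibronectin or collagen outside and the actin cytoskeleton inside. ES cells resemble the inner cell mass, whose first basement membrane forms against the primitive endoderm.

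Sense gene counts amounted to 10740618 to 14123131 per library, and the 50 genes took 0.238% to 0.261% of them. Morc3 itself was measured at 277, 272.0 and 302 CPM (read counts scaled to a common library size) in the wild-type cultures and at 77.8, 138 and 135 CPM in the ko clones, so that its transcript was reduced and not absent. By western blot the study reports loss of the Morc3 protein in its knock-out clones. Throughout, the 3 values of a group are given in the order p42, p43 and p56 for wild type and clone 1, 2 and 3 for ko. Wild-type p56 stood apart from p42 and p43. Over the 422 tested genes of chromosome 14 its median log2 ratio to the other two was 0.36, against -0.0082 over the other genes. Of the 50 genes only Nid2 lies on chromosome 14. For single genes, the log2 fold change without p56 is given where it differs in sign or by over 1.5 times.

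Among these genes 4 were lower in Morc3 ko ES cells and 0 were higher at an adjusted p under 0.01 (edgeR's quasi-likelihood test), the threshold at which a gene is referred to as called. The type IV collagen genes Col4a1 and Col4a2 fell to about the same degree in every ko clone. Igfbp7 and Mfap5, genes of secreted matrix-associated proteins, fell more steeply from a low level. Only the wild-type counts brought Igfbp7 and Mfap5 over the minimum for the set. The 6 genes with the highest mean CPM, fibronectin (Fn1), Col18a1, Itgb1, Nid2, Itga6 and agrin (Agrn), were not called, with log2 fold changes of -0.22 to 0.12 and adjusted p of 0.142 to 0.979. Of all 12222 genes tested, 1.28% were called, 0.417% as lower and 0.859% as higher. DESeq2 called the same 4 of these genes, where 1.79% of all genes with an adjusted p were called. At an adjusted p under 0.05 the type VI collagen gene Col6a4 was the only further one, for 5 in total, and 2.71% of all genes reached that threshold. An unadjusted p under 0.05 was found for 14 of the 44 tested genes, each of them lower in ko, where 14.3% of all genes reached it and 7.86% did so as lower. In bulk RNA a lower level per cell and fewer cells that express the gene cannot be told apart.

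Most of these genes that could be tested had lower values in ko. 30 of 44 (68.2%) had a negative log2 fold change, against 50% of all tested genes, and the median was -0.12 against -0.00010. In 11 of them every ko clone lay below every wild-type culture, where 10.2% of all genes did so. In 1 of them, Itga8, every ko clone lay above every wild-type culture, where 9.67% of all genes did so. Of the 11, Igfbp7, Mfap5 and Col27a1 had 8, 11 and 19 counts in ko and passed the minimum of 30 only through wild type. Their entry and their separation rest on the same counts, and they are also among the genes at an unadjusted p under 0.05. By groups, the 15 tested collagens had a median of -0.34 with 11 lower and 2 called, and the 16 tested integrin subunits had a median of -0.07 with 10 lower and 0 called by edgeR or DESeq2, 3 of them at an unadjusted p under 0.05. These counts and medians describe the genes and were not tested as a set. The genes were chosen with earlier results of these data known, so that the shares are no independent evidence of a shift.

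**Figure D1:**
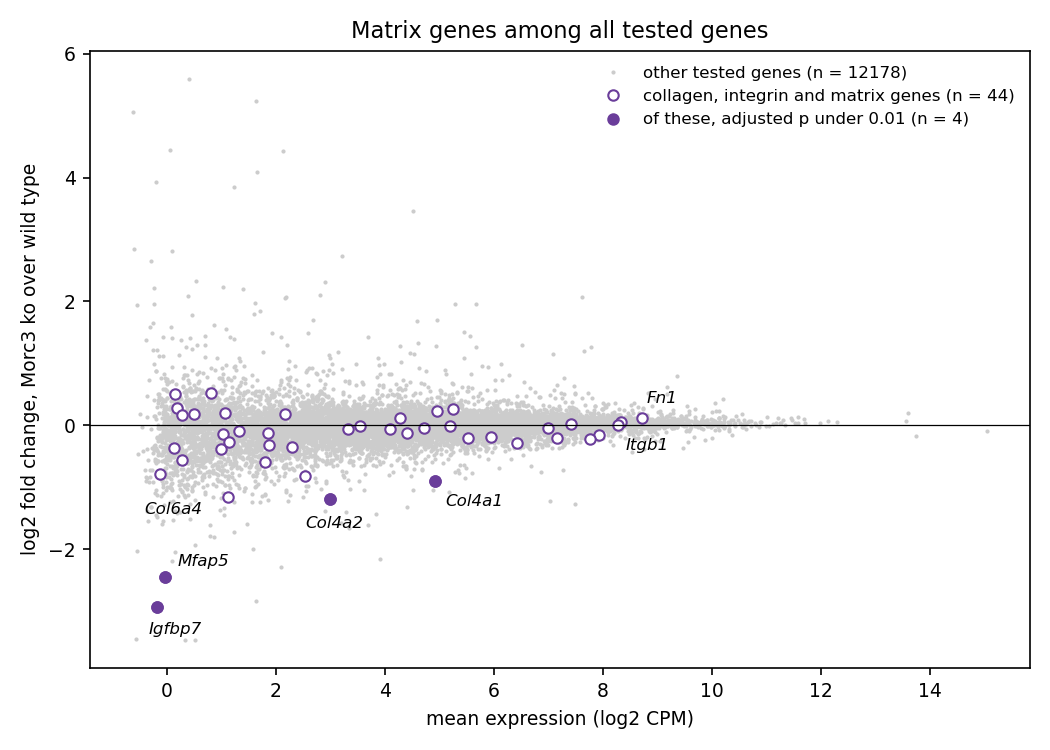
Log2 fold change of Morc3 ko over wild type against mean expression in log2 CPM for the 12222 tested genes, with the 44 tested collagen, integrin and matrix genes as circles and the 4 with an adjusted p under 0.01 filled. Col4a1 and Col4a2 lie below the cloud at moderate expression, Igfbp7 and Mfap5 at the low end, and Fn1 and Itgb1 near 0 at the high end.

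Col4a1 and Col4a2 stand head to head on chromosome 8 in the GRCm38 assembly. Col4a1 (chromosome 8, 11198423 to 11312889, minus strand) and Col4a2 (chromosome 8, 11312805 to 11449287, plus strand) are transcribed away from each other, and their 5′ exons overlap in the annotation. In the RefSeq promoter windows used here, which run from 250 bases before to 50 bases after a transcription start, the starts of the 2 genes are 21 bases apart. The windows are chr8:11312777-11313076 (minus strand) for Col4a1 and chr8:11312555-11312854 (plus strand) for Col4a2. They are shown because the 2 genes fell together, and the capitals mark the 78 bases (11312777 to 11312854) that both windows hold, each read 5′ to 3′ on its own strand.
Col4a1: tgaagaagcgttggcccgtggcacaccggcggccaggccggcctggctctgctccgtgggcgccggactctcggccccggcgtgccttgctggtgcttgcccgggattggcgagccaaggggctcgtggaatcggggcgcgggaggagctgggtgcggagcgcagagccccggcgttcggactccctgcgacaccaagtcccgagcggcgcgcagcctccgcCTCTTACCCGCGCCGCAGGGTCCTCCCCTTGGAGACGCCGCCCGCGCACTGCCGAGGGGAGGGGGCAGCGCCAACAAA
Col4a2: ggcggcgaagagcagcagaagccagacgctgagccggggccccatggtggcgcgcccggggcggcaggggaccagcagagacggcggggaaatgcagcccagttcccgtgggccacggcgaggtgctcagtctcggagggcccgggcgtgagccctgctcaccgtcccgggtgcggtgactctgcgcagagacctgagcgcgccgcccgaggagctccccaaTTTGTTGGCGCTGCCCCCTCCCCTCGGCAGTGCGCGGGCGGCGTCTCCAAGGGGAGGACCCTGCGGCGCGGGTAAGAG

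The windows were searched on both strands for GGGCGG (a GC box), CCAAT and TATAAA. The Col4a1 window held 1 GC box and 1 CCAAT, the Col4a2 window 3 GC boxes and 1 CCAAT, and neither held TATAAA. Over 32851 promoters of the same length, 35.66% held GGGCGG, 37.41% CCAAT and 13.62% TATAAA. Over the 36 of the 50 genes with a promoter in the table these shares were 63.89%, 30.56% and 11.11%. A match of letters is no measured binding site.

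Transcripts of both type IV chains were reduced in Morc3 ko ES cells. Col4a1 was measured at 40.4, 42.2 and 40.7 CPM in wild type and 22.5, 21.98 and 21.4 CPM in ko. The ko clones lay between 21.4 and 22.5 CPM, and all wild-type cultures were above 40 CPM. The log2 fold change was -0.90 (SE 0.08, adjusted p 6.0e-05) by edgeR, a level 1.87-fold lower than in wild type (21.98 ± 0.564 against 41.1 ± 0.972 CPM, SD, n = 3). Col4a2 was measured at 11.6, 11.9 and 11.8 CPM in wild type and 5.27, 5.03 and 5.17 CPM in ko. The groups were again far apart, with a log2 fold change of -1.19 (SE 0.13, adjusted p 2.7e-04) by edgeR and a 2.28-fold lower level (5.16 ± 0.118 against 11.8 ± 0.162 CPM, SD, n = 3). The SD within a group was 0.02 to 0.04 on the log2 scale for both genes, less than the median of 0.11 in ko and 0.12 in wild type over all tested genes. Counting error alone is larger than this, with 57 counts of Col4a2 in each ko clone, so that the small SD is no sign of steadier expression. Both genes were called in 13 of 13 alternative analyses, with adjusted p of at most 0.0018 for Col4a1 and 0.0051 for Col4a2, and p56 lay within 0.03 of the other wild-type cultures on the log2 scale.

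The counts on the opposite strand were 1 over all libraries for Col4a1 and 2 for Col4a2. The ratio of the 2 chains was lower in every ko clone. Col4a2 CPM over Col4a1 CPM was 0.287, 0.282 and 0.290 in wild type and 0.234, 0.229 and 0.242 in ko. The log2 ratio of ko minus wild type was -0.29 on average. The exact two-sided permutation p was 0.1, which is the smallest that 3 libraries against 3 allow. In each ko clone the ratio rests on 57 counts of Col4a2, and no counting interval was computed for it.

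**Figure D2:**
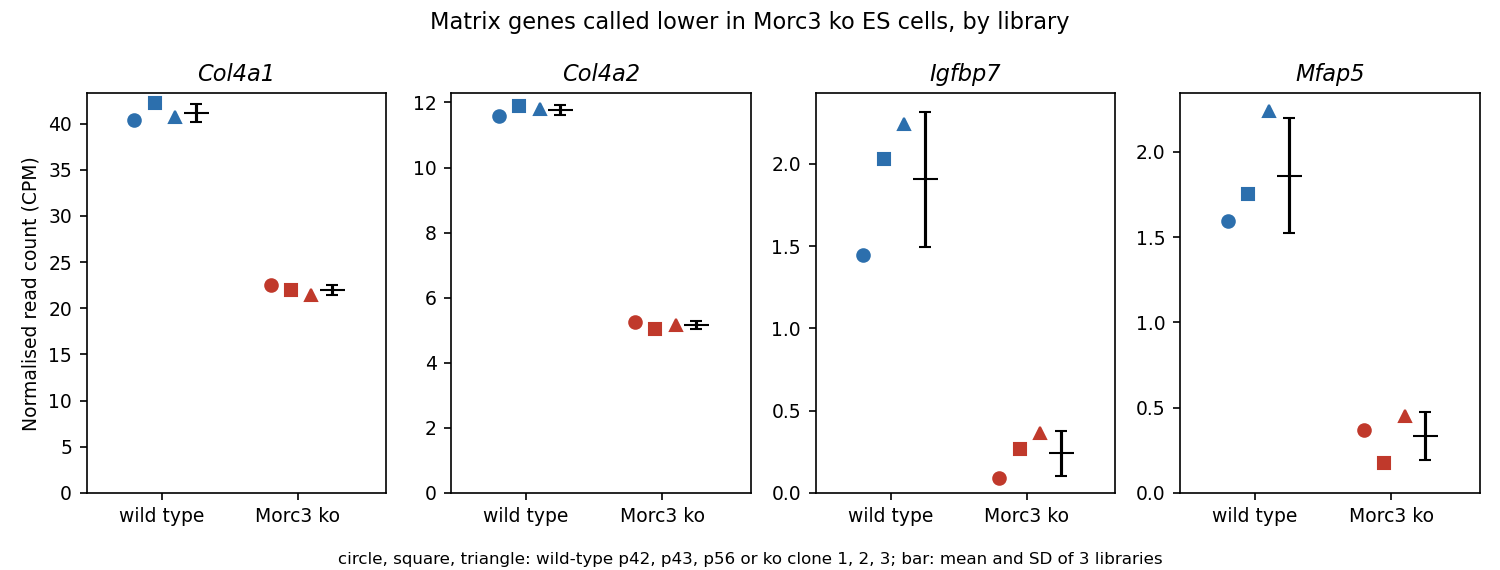
Normalised read count in CPM of Col4a1, Col4a2, Igfbp7 and Mfap5 in each wild-type culture (blue) and each Morc3 ko clone (red), with the mean and SD of 3 libraries beside the points. The groups are separate in all 4 panels, tightly for the type IV collagens and with more scatter for Igfbp7 and Mfap5, which rest on few counts.

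Igfbp7 and Mfap5 showed the steepest falls but rest on few reads. Igfbp7 (chromosome 5, 77349240 to 77408045, minus strand) encodes a secreted protein that binds insulin-like growth factors and is found in the matrix. It had 1.45, 2.03 and 2.24 CPM in wild type and 0.0924, 0.265 and 0.363 CPM in ko. Every ko value was at or below 0.363 CPM and every wild-type value at or above 1.45 CPM. The log2 fold change was -2.93 (SE 0.44, adjusted p 0.00324) by edgeR. Over the group these are 8 counts in ko against 78 in wild type, and wild type over ko came to 7.88 after scaling (95% exact counting interval 3.81 to 18.9). Mfap5 (chromosome 6, 122513584 to 122529290, plus strand) encodes a protein of the microfibrils that carry elastin. It had 1.59, 1.75 and 2.24 CPM in wild type and 0.370, 0.177 and 0.454 CPM in ko. Again no ko value reached a wild-type value. Its log2 fold change was -2.45 (SE 0.39, adjusted p 0.00523) by edgeR, from 11 counts against 76, and the scaled ratio was 5.58 (95% counting interval 2.95 to 11.7). The intervals cover counting error only. Igfbp7 and Mfap5 passed the minimum of 30 counts over all libraries through wild type, as their ko counts of 8 and 11 lie below it. Their entry into the set and their fall thus rest on the same wild-type counts.

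Both genes kept their direction when a library was left out, but not their call. Igfbp7 had an edgeR adjusted p of 0.0204, 0.0330 and 0.0191 without ko clones 1, 2 and 3 and of 0.0121 without wild-type p43. Mfap5 had 0.0259, 0.0544 and 0.0261 without ko clones 1, 2 and 3 and 0.0115 and 0.0151 without wild-type p42 and p43. Accordingly, of the 4 called genes 2 were left without any 1 of the ko clones or without p43, 3 without p42 and 4 without p56. The share of all tested genes that were called also moved, from 1.28% to 0.768%, 0.583% and 0.575% without ko clones 1, 2 and 3. It was 0.863% without p42, 0.951% without p43 and 3.13% without p56. Igfbp7 shares an exon region with Polr2b, an RNA polymerase II subunit gene on the other strand. Opposite-strand counts of Igfbp7 were 84 in ko and 77 in wild type, 65.2% of its counts on both strands. In the counts that ignore strand Igfbp7 had an adjusted p of 0.0252.

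Of the other collagens all but Col18a1 were low, and none passed the threshold of 0.01 by edgeR. Col6a4, a chain of the type VI collagens that form beaded filaments, had 3.19, 2.66 and 3.32 CPM in wild type and 0.924, 1.32 and 1.81 CPM in ko. The groups did not overlap, and the log2 fold change was -1.16 (SE 0.27, adjusted p 0.0449) by edgeR, with adjusted p between 0.018 and 0.215 over the alternatives. Its opposite-strand counts made up 12.8%. Col13a1, a collagen anchored in the plasma membrane, had 6.45, 6.37 and 10.04 CPM in wild type and 5.36, 3.71 and 3.81 CPM in ko. All ko clones were below all wild-type cultures, with a log2 fold change of -0.82 (SE 0.22, adjusted p 0.0852), but p56 was the highest library, and without it the change was -0.58.

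Col9a2, a FACIT collagen of cartilage, had 3.84, 4.69 and 3.78 CPM in wild type and 3.33, 2.21 and 2.63 CPM in ko. Col27a1, a fibrillar collagen of cartilage, had 1.01, 0.910 and 1.08 CPM in wild type and 0.554, 0.530 and 0.635 CPM in ko, on 19 counts in ko and 41 in wild type. In both genes the groups did not overlap. Their log2 fold changes were -0.60 (SE 0.21, adjusted p 0.209) and -0.79 (SE 0.35, adjusted p 0.336) by edgeR. The fibrillar collagen with the highest level was Col5a1, whose product steers fibril assembly. It had 10.9, 10.2 and 9.03 CPM in wild type and 10.2, 9.18 and 9.71 CPM in ko, and its groups overlapped with a log2 fold change of -0.05 (SE 0.13, adjusted p 0.903, -0.12 without p56). Col7a1, the collagen of anchoring fibrils under epithelia, had 5.94, 7.001 and 3.63 CPM in wild type and 4.34, 5.30 and 3.45 CPM in ko, a log2 fold change of -0.34 (SE 0.25, adjusted p 0.604), and -0.57 without p56. The remaining tested collagens, Col2a1, Col5a3, Col6a5, Col9a3, Col11a1 and Col17a1, had log2 fold changes of -0.37 to 0.27 and adjusted p of 0.564 to 0.865. Of these, without p56 Col9a3 changed from 0.20 to -0.16 and Col11a1 from 0.27 to 0.05.

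Among the collagens Col18a1 had the highest level per exon length. Col18a1, a basement membrane collagen whose end fragment is endostatin, had 326, 352 and 273 CPM in wild type and 308, 349.9 and 332 CPM in ko. The groups overlapped and the log2 fold change was 0.06 (SE 0.09, adjusted p 0.833, -0.04 without p56) by edgeR. The difference between its change and that of Col4a1 was not tested.

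The partners of type IV collagen in the basement membrane did not pass the threshold. Nidogens bridge laminin and type IV collagen. Nid1 had 90.5, 80.3 and 116 CPM in wild type and 76.8, 75.3 and 82.2 CPM in ko. The groups overlapped, with ko clone 3 above wild-type p43, and the log2 fold change was -0.29 (SE 0.11, adjusted p 0.26) by edgeR and -0.13 without p56. Nid2 had 242, 252 and 278 CPM in wild type and 238, 223 and 230.3 CPM in ko. All ko clones were below all wild-type cultures, with a log2 fold change of -0.16 (SE 0.07, adjusted p 0.295) and of -0.10 without p56, in which chromosome 14 is high. Perlecan (Hspg2), the large heparan sulfate proteoglycan of basement membranes, had 148, 149 and 95.5 CPM in wild type and 145, 119 and 116 CPM in ko. Its log2 fold change was -0.05 (SE 0.15, adjusted p 0.924), and without p56, its lowest library, it was -0.23 with an adjusted p of 0.0911. Agrin (Agrn), another heparan sulfate proteoglycan, had 171, 182 and 155 CPM in wild type and 173, 172 and 171 CPM in ko and a log2 fold change of 0.02 (SE 0.07, adjusted p 0.922, -0.03 without p56).

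Fn1 encodes fibronectin, the main ligand of RGD-binding integrins, and was the most counted of the 50 genes. It had 466, 457 and 302 CPM in wild type and 459, 438 and 432 CPM in ko. The groups overlapped and p56 lay far below the rest, and the log2 fold change was 0.12 (SE 0.13, adjusted p 0.752) by edgeR and -0.06 without p56. Sparc, a matricellular protein that binds collagen, had 152, 139 and 170.3 CPM in wild type and 114, 138 and 145 CPM in ko. The groups overlapped by ko clone 3 and p43, and the log2 fold change was -0.21 (SE 0.10, adjusted p 0.346, -0.13 without p56).

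**Figure D3:**
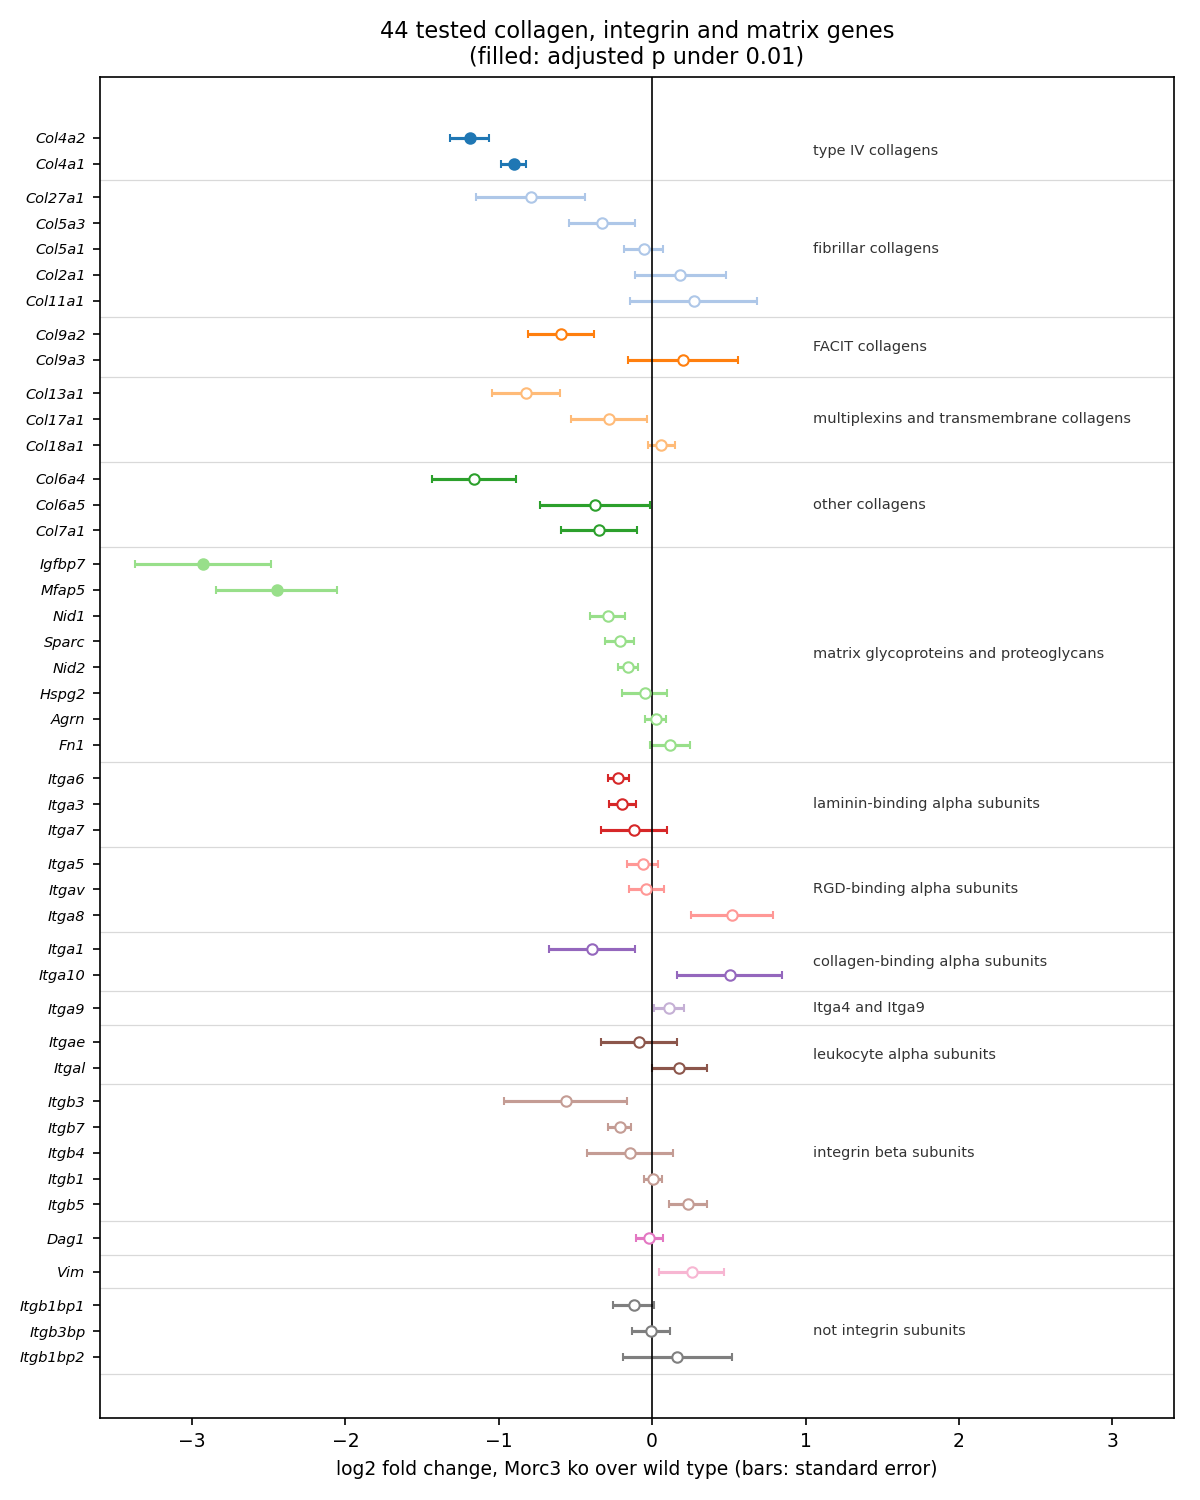
Log2 fold change of Morc3 ko over wild type with its standard error for the 44 tested genes, ordered by role and filled where the adjusted p is under 0.01. Col4a1, Col4a2, Igfbp7 and Mfap5 are filled and lie left of 0, while the integrin subunits lie on both sides of 0 with open circles.

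Integrin subunit genes did not pass the threshold in either direction. Among the 11 tested alpha subunits the laminin receptor subunits Itga6 and Itga3 had the highest levels per exon length. Itga6, which marks many stem cells, had 231, 219.6 and 258 CPM in wild type and 199.6, 201 and 207 CPM in ko. All ko clones were below all wild-type cultures, at a log2 fold change of -0.22 (SE 0.07, adjusted p 0.142) by edgeR and -0.15 without p56. Itga3 had 57.3, 67.4 and 73.1 CPM in wild type and 57.8, 57.5 and 57.3 CPM in ko. The ko clones lay close together and overlapped with the lowest wild-type culture, with a log2 fold change of -0.20 (SE 0.09, adjusted p 0.343) and -0.11 without p56. Itga7, the third laminin-binding subunit, was low, and its log2 fold change was -0.12 (SE 0.22, adjusted p 0.87, -0.22 without p56).

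Of the subunits that bind the RGD motif of fibronectin and vitronectin, Itgav had 30.4, 24.99 and 24.1 CPM in wild type and 28.7, 24.3 and 24.5 CPM in ko. The groups overlapped, with a log2 fold change of -0.04 (SE 0.11, adjusted p 0.924, -0.10 without p56). Itga5, the classical fibronectin receptor subunit, had a log2 fold change of -0.06 (SE 0.10, adjusted p 0.853, -0.02 without p56) at 17.3 ± 0.844 CPM in wild type (SD, n = 3). Itga8 was the only tested gene of the set with all ko clones above all wild-type cultures, at 1.23, 1.19 and 1.62 CPM in wild type and 1.66, 2.03 and 2.09 CPM in ko, and its log2 fold change was 0.52 (SE 0.27, adjusted p 0.42). Itga9 had 18.2, 17.9 and 19.8 CPM in wild type and 19.96, 19.5 and 20.8 CPM in ko and overlapping groups, with a log2 fold change of 0.11 (SE 0.10, adjusted p 0.688). The collagen receptor subunit Itga1 had 2.53, 2.31 and 1.54 CPM in wild type and 1.29, 1.85 and 1.72 CPM in ko and a log2 fold change of -0.39 (SE 0.28, adjusted p 0.603), and its relative Itga10 had 0.51 (SE 0.34, adjusted p 0.577). Of the leukocyte subunits, Itgal had 4.27, 3.57 and 4.40 CPM in wild type and 4.71, 4.94 and 4.17 CPM in ko and a log2 fold change of 0.18 (SE 0.18, adjusted p 0.724), and Itgae had -0.09 (SE 0.25, adjusted p 0.92, -0.04 without p56). All adjusted p-values are from edgeR's quasi-likelihood test.

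Itgb1, the beta subunit shared by most of these alpha subunits, had 304, 304 and 318 CPM in wild type and 298, 305 and 327 CPM in ko. The groups overlapped fully, with a log2 fold change of 0.01 (SE 0.06, adjusted p 0.979, 0.03 without p56) by edgeR. Itgb7, whose known partners are Itga4 and Itgae of lymphocytes, had 48.4, 47.9 and 52.6 CPM in wild type and 42.2, 42.8 and 43.6 CPM in ko. All ko clones were below all wild-type cultures, with a log2 fold change of -0.21 (SE 0.07, adjusted p 0.198) and -0.17 without p56. Itgb5, a partner of Itgav, had 32.3, 31.6 and 22.7 CPM in wild type and 34.5, 35.4 and 32.2 CPM in ko, overlapping groups and a log2 fold change of 0.23 (SE 0.12, adjusted p 0.436, 0.09 without p56). Itgb3 and Itgb4 were near 1 to 2 CPM, with log2 fold changes of -0.56 (SE 0.40, adjusted p 0.599, -0.37 without p56) and -0.14 (SE 0.28, adjusted p 0.88, -0.03 without p56). Summed over the 5 beta subunits, the level was 390.4 ± 6.06 CPM in wild type and 389.6 ± 14.02 CPM in ko (SD, n = 3).

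Dystroglycan (Dag1), a laminin receptor that is no integrin, had 40.8, 35.5 and 34.8 CPM in wild type and 35.9, 37.9 and 35.9 CPM in ko, with overlapping groups and a log2 fold change of -0.02 (SE 0.09, adjusted p 0.957, -0.06 without p56) by edgeR. Vimentin (Vim), the intermediate filament of mesenchymal and many cultured cells, had 38.8, 43.4 and 24.2 CPM in wild type and 29.7, 47.8 and 50.1 CPM in ko. The lowest ko clone and the lowest wild-type culture were both far below their groups, and the log2 fold change was 0.26 (SE 0.21, adjusted p 0.666) and 0.05 without p56. Of the genes named after integrins, Itgb1bp1, a protein that binds the beta 1 tail, had 20.8, 21.5 and 24.2 CPM in wild type and 18.1, 25.2 and 17.8 CPM in ko and a log2 fold change of -0.12 (SE 0.14, adjusted p 0.755, -0.05 without p56). Itgb1bp2 and Itgb3bp, a muscle protein and a centromere protein, had 0.16 (SE 0.36, adjusted p 0.891, 0.01 without p56) and -0.01 (SE 0.12, adjusted p 0.99, 0.03 without p56).

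To compare genes with each other, levels were divided by exon length (CPM per kb). In wild type Itgb1 led with 80.9 ± 2.17 (mean ± SD, n = 3). Next came a group of Sparc (56.5 ± 5.71), Itga6 (54.1 ± 4.45), Nid2 (52.8 ± 3.77), Fn1 (48.2 ± 10.8) and Col18a1 (46.7 ± 5.90), in which neighbours differed by less than the larger of their SDs. Agrn followed at 21.7 ± 1.71, then Itgb7 (18.5 ± 0.955), Vim (16.2 ± 4.56) and Nid1 (15.7 ± 3.02), the last of which lay within the SD of Vim. Col4a1 stood at 6.21 ± 0.147, beside Dag1 (6.21 ± 0.547), and Col4a2 at 1.82 ± 0.0252. In ko, Col4a1 was at 3.32 ± 0.0853 and Col4a2 at 0.7995 ± 0.0183 CPM per kb. Among integrin subunits on this scale the order was Itgb1, Itga6, Itgb7 and Itga3.

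**Figure D4:**
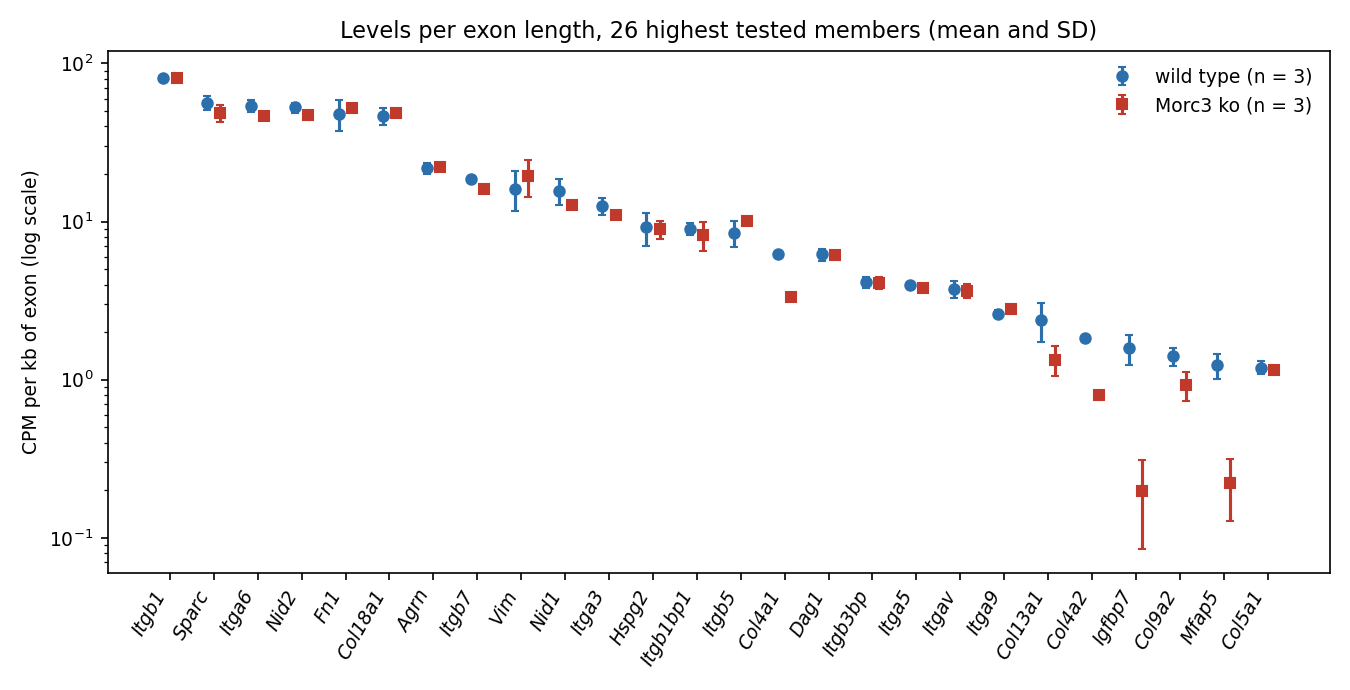
CPM per kb of exon on a log scale for the 26 tested genes with the highest wild-type level, as mean and SD of 3 wild-type cultures (blue circles) and 3 Morc3 ko clones (red squares). The groups lie together for most genes and are farthest apart for Igfbp7 and Mfap5, followed by Col4a2 and Col4a1.

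Libraries of the same group also differed from each other in these genes. The median within-group SD on the log2 scale was 0.169 in ko and 0.173 in wild type over the 44 tested genes, against 0.109 and 0.123 over all tested genes. Relative to the mean of p42 and p43, p56 was lower by over 0.3 on the log2 scale in 12 tested genes and higher by over 0.3 in 7. It was lower for Fn1 (-0.61), Hspg2 (-0.64), Vim (-0.76), Itgb5 (-0.49), Col7a1 (-0.80) and Col9a3 (-1.51). It was higher for Nid1 (0.44) and Col13a1 (0.63), whereas Col4a1 (-0.02) and Col4a2 (0.0085) differed by under 0.03. Among the ko clones, clone 1 was the lowest for Vim and Sparc and the highest for Hspg2. With p56 alone set against p42 and p43 there is no replicate of p56, and no test was made.

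**Figure D5:**
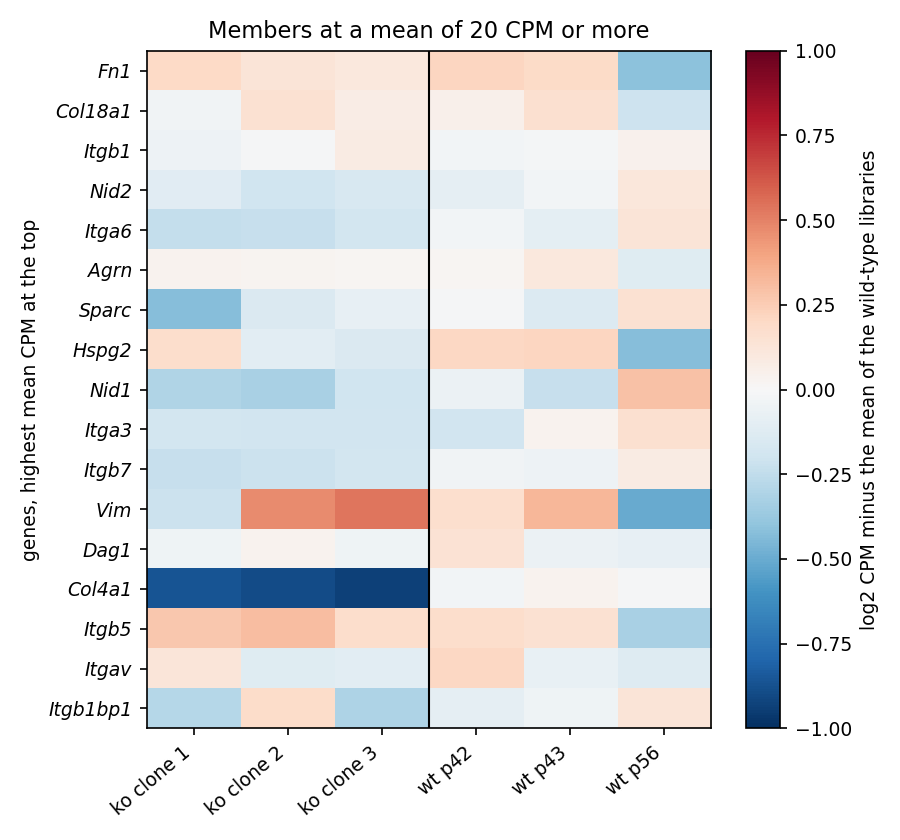
Log2 CPM of each library minus the wild-type mean for the 17 tested genes with a mean of at least 20 CPM, with ko clones left and wild-type cultures right of the line. Col4a1 is low in all 3 ko clones, while Fn1, Hspg2, Vim and Itgb5 are low in wild-type p56.

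Genes that make, cut or bind the matrix were then examined, from lists of known function. Of the collagen processing genes (hydroxylases, chaperones, procollagen proteinases, crosslinking enzymes), 33 are in the files and 24 were tested, with 0 called by edgeR (1 by DESeq2), 17 lower and a median log2 fold change of -0.10. Pcolce2, an enhancer of procollagen cleavage, had 47.1, 45.2 and 50.4 CPM in wild type and 58.9, 63.6 and 67.97 CPM in ko. Every ko clone was above every wild-type culture, and the log2 fold change was 0.42 (SE 0.08, adjusted p 0.0149) by edgeR, with an adjusted p of 4.8e-04 without p56. Tgm2, a transglutaminase that crosslinks matrix proteins, had 25.2, 23.5 and 56.98 CPM in wild type and 17.7, 12.01 and 12.6 CPM in ko. Every ko clone was below every wild-type culture, and p56 was far above the rest, at a log2 fold change of -1.31 (SE 0.30, adjusted p 0.042) and of -0.79 without p56, where its adjusted p was 3.9e-04. The lysyl hydroxylase gene Plod1 (-0.32, SE 0.08, adjusted p 0.059) and Serpinh1, the collagen chaperone (-0.36, SE 0.15, adjusted p 0.304), also did not pass the threshold. The 6 genes of this list at an unadjusted p under 0.05 are these 4, Plod2 (0.30) and Loxl3 (-0.99), where 14.3% of all genes reached that level. Genes of these lists other than called ones were named after their values were seen.

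Of 27 matrix proteases and inhibitors 19 were tested, with 0 called by edgeR or DESeq2, 13 lower and a median log2 fold change of -0.24. An unadjusted p under 0.05 was found for 6 of the 19, where 14.3% of all genes reached it. In 7 of the 19 all ko clones were below all wild-type cultures, where 10.2% of all genes did so. Mmp17 (-0.64, SE 0.15, adjusted p 0.0457), Mmp14 (-0.59, SE 0.14, adjusted p 0.0537) and Mmp2 (-0.58, SE 0.17, adjusted p 0.121) had the smallest adjusted p by edgeR. The others at an unadjusted p under 0.05 were Timp1 (-0.24), Adamts9 (-0.50) and Adamts1, a secreted protease that cuts proteoglycans, the 1 gene of the list with all ko clones above all wild-type cultures, at 4.27, 2.66 and 2.86 CPM in wild type and 6.19, 5.65 and 4.36 CPM in ko (0.72, SE 0.22, adjusted p 0.141). Mmp14 and Mmp17 are membrane-bound matrix metalloproteinases, and Mmp2 is a gelatinase that Mmp14 activates. Of 29 adaptors of integrin adhesions 25 were tested, with a median of 0.05. An unadjusted p under 0.05 was found for 3 of the 25, where 14.3% of all genes reached it. In 5 of the 25 all ko clones were above all wild-type cultures, where 9.67% of all genes were. In 1 of the 25 all ko clones were below, where 10.2% of all genes were. Only 1 adaptor was called by edgeR, where 1.28% of all genes were called. This is Ptk2b, a kinase related to focal adhesion kinase, with 9.70, 9.10 and 9.03 CPM in wild type and 15.7, 15.1 and 14.2 CPM in ko. It was higher in every ko clone, with a log2 fold change of 0.69 (SE 0.11, adjusted p 0.00557) by edgeR. Ptk2b lies on chromosome 14, which is high in p56, but its own level was lowest in p56 among the wild-type cultures. Without p56 its log2 fold change was 0.68. Its adjusted p was 0.0259, 0.0452 and 0.0265 without ko clones 1, 2 and 3 and 0.0184 and 0.0240 without p42 and p43, so that its call rests on each of these libraries. Of 12 intermediate filament genes beside Vim 10 were tested, with 0 called by edgeR or DESeq2 and a median of -0.03, and Des was the only one at an unadjusted p under 0.05 (-0.38, SE 0.09, adjusted p 0.0618).

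Marker genes were measured to see which cells the libraries hold. The 10 ES cell markers, Pou5f1, Sox2 and Nanog among them, were all tested and 0 were called by edgeR (2 at an unadjusted p under 0.05, 1 called by DESeq2, Dppa5a), with a summed level of 6356 to 6456 CPM in ko and 5836 to 5933 CPM in wild type. Of the 10, 2 were lower in ko. Dppa5a was higher in every ko clone, with a log2 fold change of 0.43 (SE 0.09, adjusted p 0.0231) by edgeR. Without p56 its edgeR adjusted p was 9.6e-04. The 14 markers of primitive and parietal endoderm, cells that secrete much type IV collagen, summed to 3.63 to 3.88 CPM in ko and 3.78 to 7.35 CPM in wild type. 2 of them were tested, with 0 called by edgeR or DESeq2 and 0 at an unadjusted p under 0.05, Gata4 with a log2 fold change of -0.81 (SE 0.40, adjusted p 0.395), while Ttr was at 0 in all libraries and Foxa2, Sox17 and Gata6 were at most 0.579 CPM. The lowest wild-type sum, 3.78 CPM, was that of p56. These sums rest on few counts, and their relation to the levels of Col4a1 and Col4a2 was not tested. The 8 mesoderm markers summed to 2.03 to 3.27 CPM in ko and 3.01 to 3.26 CPM in wild type, with Hand1 at 0. Of them only Eomes was tested, and it was called by neither tool.

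The 12 mesenchyme and fibroblast markers summed to 8.92 to 9.42 CPM in ko and 13.4 to 14.4 CPM in wild type. Most of this was Thy1, a surface glycoprotein of fibroblasts and other cells, which had 8.18, 8.82 and 9.11 CPM in wild type and 5.08, 4.59 and 4.72 CPM in ko and was called lower with a log2 fold change of -0.86 (SE 0.14, adjusted p 0.0064) by edgeR. Its adjusted p was 0.018 to 0.058 without any 1 library other than p56 and 0.0021 without p56. The other 2 tested, Pdgfrb (-0.43, SE 0.23, adjusted p 0.429) and Tagln (-0.27, SE 0.30, adjusted p 0.748), were not called, and Twist2, Prrx1, Dcn and Postn were at 0 in all libraries. The 4 neural markers summed to 101 to 108 CPM in ko and 103 to 111 CPM in wild type, and the 5 blood cell markers to 8.96 to 11.7 and 10.0 to 11.1 CPM, with 0 called by edgeR or DESeq2 and 0 at an unadjusted p under 0.05 in both lists. The part of other cell types in the lower matrix transcripts was not tested.

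The chains left out by the minimum were few in counts. Of the 36 rows under 30 counts 9 had none in any library, among them Col4a3 and Col4a6. Col4a4 and Col4a5 had 4 and 6 counts over all libraries, so that Col4a1 and Col4a2 were the type IV chains that could be measured. Of the collagens that mark fibroblasts, Col1a1 had 29 counts, just under the minimum, Col1a2 had 12 and Col3a1 had 2. Mfap2, a partner of Mfap5 in microfibrils, had 2. Above the minimum, Col26a1 with 33 counts and Col22a1 with 39 were the closest. The 6 genes that passed the minimum of 30 but not the filter for testing were Col11a2, Col20a1, Col22a1, Col26a1, Itga2b and Itgam, each at less than 1 CPM on average, and they were not tested.

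Opposite-strand counts were under 1% for 35 of the 50 genes and over 10% for 7. Besides Igfbp7 and Col6a4 these were Col9a3 (73.1%), Itgb4 (37.2%), Itgae (36.0%), Col2a1 (23.6%) and Itga10 (20.2%). Col9a3 shares exon sequence with Tcfl5, which is on the other strand, and had 216 opposite-strand counts in ko and 202 in wild type against 74 and 80 sense counts. All levels given here are from the sense strand.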

How the data were processed

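Per the labels and the methods of the study, total RNA was depleted of ribosomal RNA, strand-specific libraries were sequenced as 50 bp paired-end reads, and the authors aligned them to mm10 with STAR, whose raw gene counts were deposited. The gene annotation is not given in the sources used here. The sense column was used. The 4 lines without a gene (36.2% to 37.7% of reads) were left out.

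Counts were tested with edgeR 4.0.16 (R 4.3.3; quasi-likelihood, TMM, filterByExpr, group as the only term, two-sided, Benjamini-Hochberg over 12222 genes, adjusted p under 0.01). Log2 fold changes have a prior count of 0.125, and the SE is the log2 fold change divided by the square root of F. Alternatives were DESeq2 1.42.0, limma 3.58.1 (voom), other scaling, filters, strand and thresholds, and each library left out. Positions and promoters are from RefSeq (GRCm38.p6), exon lengths from GENCODE M21. The code was tested on simulated data.

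The members and lists were chosen with earlier results of these data known. Members are named with full values if called, at an unadjusted p under 0.05, called in an alternative, highest in mean CPM within their role group, or on a short list (Fn1, Col4a1, Col4a2, Itgb1, Itga6, Itgav, Sparc, Vim, Nid1, Nid2, Hspg2). Itga8 was added after its values were seen. P-values set the difference between the groups against the spread within them. That spread is between separate clones in ko and between cultures of the same line in wild type. Clones of the wild-type line were not among the libraries, and the part of differences between clones in the ko changes was not tested.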

Additional observations from a re-analysis of the deposited data

How the results depend on the processing

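The count of 4 genes of the set called lower was the same, with all 4 genes shared, under RLE scaling, DESeq2, limma-voom, the robust fit, no filter on low counts and without chromosome 14. The counts that ignore strand gave 3, a fold change of at least 2 gave 3, and an adjusted p under 0.05 gave 5. Dropping each library in turn gave 2 to 4, with 0.575% to 3.13% of all genes called in those fits. Igfbp7 and Mfap5 each lost the call without any 1 of several libraries, as described above. No paired analysis was possible because the ko clones and the wild-type cultures carry no replicate numbers in common. Of the collagen processing, protease, adaptor and filament genes, 1 was called, where 1.28% of all genes were called. DESeq2 gave 2, no filter 5, chromosome 14 left out 0 (Ptk2b lies there), an adjusted p under 0.05 4, a fold change of at least 2 0, and dropping each library in turn 0 to 4, with 4 without p56 (Lmna, Pcolce2, Ptk2b and Tgm2). The cause of the shifts under DESeq2, without the filter and without single libraries was not tested. Some genes changed sign when a library was left out, with values of -0.034 to 0.078 for Agrn, -0.011 to 0.61 for Col11a1, -0.036 to 0.14 for Col18a1, -0.12 to 0.0094 for Col5a1, -0.16 to 0.45 for Col9a3, -0.058 to 0.060 for Dag1, -0.058 to 0.22 for Fn1, -0.23 to 0.056 for Hspg2, -0.22 to 0.034 for Itga7, -0.29 to 0.089 for Itgae, -0.12 to 0.076 for Itgav, -0.030 to 0.039 for Itgb1, -0.10 to 0.41 for Itgb1bp2 and -0.074 to 0.064 for Itgb3bp. In the counts that ignore strand Itgae had 0.081 and Itgb3bp 0.00013. None of these 14 genes was called in any alternative. Counts limit the lowest genes: Igfbp7 and Mfap5 rest on 8 and 11 counts in ko.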
